A study of Mus musculus with 7 samples.

Results

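The genes described here are 33 genes of glycolysis and of the transcriptional response to low oxygen, followed in mouse bone-marrow-derived macrophages (BMDMs). They were taken as a named list that covers 4 glucose and lactate transporters, 9 genes of hexose phosphorylation and its regulators, 11 genes of the steps from triose phosphates to lactate, 2 pyruvate dehydrogenase kinases and 7 genes of hypoxia-inducible factor (HIF), its oxygen sensors and its response. All 33 were present among the 48440 genes of the table of the lipopolysaccharide (LPS) experiment and among the 55352 genes of the table of the adeno-associated virus (AAV) experiment, and all 33 passed the filter on low values in both.

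Glycolysis splits glucose into pyruvate in the cytosol, and lactate dehydrogenase turns pyruvate into lactate, which leaves the cell through monocarboxylate transporters. Pyruvate dehydrogenase kinases hold pyruvate back from the mitochondria. HIF1A is a transcription factor that prolyl hydroxylases mark for degradation when oxygen is present, and most glycolytic enzymes are among its targets. Macrophages stimulated with LPS are known to raise glucose uptake and glycolysis.

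BMDMs are macrophages grown from mouse bone marrow in medium with the growth factor M-CSF. LPS, a glycolipid from the surface of Gram-negative bacteria that Toll-like receptor 4 senses, was given at 100 ng per mL for 2 h or 4 h, and cells without treatment stood for 0 h. The cells of these 3 libraries were labelled WT, and there was 1 library per time point. In the other experiment BMDMs were transduced for 48 h with AAV that carried green fluorescent protein (AAV-GFP, labelled WT) or Shisa3 (AAV-Shisa3, labelled Shisa3 overexpression), with 2 samples in each group. The vectors were packaged with AAV1 capsid genes and drove their insert from the CAG promoter, which is active in most cell types. Both groups of that table were virus-treated, so it holds no untransduced cells, and no LPS is named for them. The labels do not say whether the samples of a group came from separate animals or cultures, so p-values measure only the spread between these samples, which may be technical.

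The recovered reads of the 3 LPS libraries ranged from 7263258 at 2 h to 32659392 at 4 h, and the depth of the AAV samples is unknown. Shisa3 itself stood at 12.31 and 17.81 transcripts per 1000000 (TPM) in AAV-Shisa3 against 7.88 and 10.85 TPM in AAV-GFP, a log2 change of 0.63 (SE 0.22, Benjamini-Hochberg adjusted p = 0.138 from limma's trended test) that did not pass the threshold of 0.05. With each sample left out this change was 0.38 to 0.87. The 12 macrophage markers summed to between 39436 and 43733 TPM in the 4 AAV samples, and 4 of 8 lymphocyte markers were listed at 0 in all of them. The 12 markers of neutrophils and their progenitors summed to 1120 and 706 TPM in AAV-Shisa3 against 610 and 586 TPM in AAV-GFP. For 10 of the 11 of these markers that were tested, each AAV-Shisa3 value exceeded each AAV-GFP value, against 18.2% of all 11218 genes tested. Of the 11, 2 were higher and 0 lower at an adjusted p under 0.05 from limma, against 2.23% and 4.10% of all genes. The part of these markers in the results below was not tested. In bulk RNA, fewer cells of a type and less RNA per cell cannot be told apart.

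The promoters of the members were searched for the letters that HIF binds. The list was made of HIF response and glycolysis genes, many of them known HIF targets, so a high share is in part built into the choice of the list and is given as a description. HIF binds DNA at a hypoxia response element with the core ACGTG or GCGTG, and both cores were searched on both strands in the 250 bases before each transcription start that RefSeq annotates on GRCm38.p6. At least 1 core was present for 30 of the 33 members (90.9%), against 41.5% of 27025 genes with a promoter in the table and 62.3% of the 8507 of them that were tested in the AAV experiment. At least 2 cores were found in 63.6% of the members and in 18.7% and 32.6% of those genes. The palindrome CACGTG, to which E-box factors also bind and which counts as an ACGTG core on each strand, was found in 18.2% of the members against 6.86% and 10.3%. Gpi1, Tpi1 and Eno2 were the members with no core in this window. A gene with several annotated starts was counted once if any of its promoters held the letters, and base composition was not matched. The stretch from 200 to 30 bases before the start is shown for 5 members that reappear in the results, with the cores in capitals on either strand: Ldha (chr7:46845604-46845774, plus strand), Bnip3 (chr7:138909536-138909706, minus strand), Pfkfb3 (chr2:11502120-11502290, minus strand), Slc2a1 (chr4:119108545-119108715, plus strand) and Slc2a6 (chr2:27028028-27028198, minus strand).
Ldha: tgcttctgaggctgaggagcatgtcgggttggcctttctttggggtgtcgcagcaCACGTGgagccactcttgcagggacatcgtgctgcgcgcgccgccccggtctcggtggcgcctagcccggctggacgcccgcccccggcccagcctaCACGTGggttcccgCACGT
Bnip3: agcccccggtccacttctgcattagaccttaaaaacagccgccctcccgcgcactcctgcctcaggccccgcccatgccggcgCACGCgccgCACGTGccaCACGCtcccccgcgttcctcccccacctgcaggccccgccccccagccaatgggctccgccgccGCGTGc
Pfkfb3: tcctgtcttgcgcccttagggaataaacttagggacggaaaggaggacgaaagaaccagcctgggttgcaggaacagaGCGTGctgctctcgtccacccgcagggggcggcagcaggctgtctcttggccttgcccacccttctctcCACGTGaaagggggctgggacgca
Slc2a1: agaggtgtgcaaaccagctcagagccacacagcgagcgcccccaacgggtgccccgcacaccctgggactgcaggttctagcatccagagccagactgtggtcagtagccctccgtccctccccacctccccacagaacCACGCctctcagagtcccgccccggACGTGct
Slc2a6: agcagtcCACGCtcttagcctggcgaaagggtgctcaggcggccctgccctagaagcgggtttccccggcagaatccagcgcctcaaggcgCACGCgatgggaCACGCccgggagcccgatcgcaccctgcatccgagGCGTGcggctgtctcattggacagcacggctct
At a single annotated start, those shown for Ldha and Bnip3 held the most cores among the members, with 5 each and each palindrome counted on both strands, while that of Slc2a6 held 4 cores of the GCGTG form and no ACGTG. The other annotated start of Ldha and that of Pfkfb3, not shown, held 1 core each. A match is a description of the letters and not a binding site.

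A promoter of Vegfa, chosen after values were seen, is shown as well. The part of its letters in the changes of Vegfa was not tested. The upstream start of Vegfa, with the stretch at chr17:46032407-46032577, minus strand, held no HIF core in this window and a match to the NF-kB consensus, here in capitals.
Vegfa: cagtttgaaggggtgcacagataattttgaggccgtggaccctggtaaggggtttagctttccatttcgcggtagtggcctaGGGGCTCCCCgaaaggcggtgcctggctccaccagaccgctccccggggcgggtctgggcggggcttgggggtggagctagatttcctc
The letters fit the pattern on both strands and were counted as a single position. A downstream start of Vegfa held 2 HIF cores, so Vegfa counts among the 30 members with a core. The NF-kB pattern was found in 3 of the 33 members (9.09%), Vegfa, Pgk1 and Pfkm, against 8.23% of all genes with a promoter and 10.6% of those tested, a share near the background.

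The LPS time course asked how macrophages change their transcripts over the first hours of stimulation. The 4 transporters and 4 of the 9 genes of hexose phosphorylation and its regulators, Hk2, Hk3, Pfkp and Pfkfb3, were at least 2-fold higher in both LPS libraries by the deposited values, while the enzymes from aldolase to lactate dehydrogenase stayed within 3-fold of their 0 h values. At 2 h, 10 of the 33 members (30.3%) were at least 2-fold higher than at 0 h and 2 (6.06%) at least 2-fold lower, against 20.5% and 24.7% of the 17854 genes kept. At 4 h these were 16 (48.5%) and 2 members, against 22.2% and 23.6% of genes. From 2 h to 4 h 7 members (21.2%) were at least 2-fold higher and 2 at least 2-fold lower, against 17.9% and 15.2%. The median log2 change of the members was 0.51 at 2 h and 0.96 at 4 h, and that of all genes kept was -0.05 and -0.04. With the reads scaled to equal library totals the members' medians were -0.15 and 0.14, and those of all genes -0.71 and -0.83. With 1 library per time point there is no test, and the intervals given below cover counting error only.

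The scale of the libraries matters for these values. The values as deposited are read counts divided by a factor for each library, and with the reads scaled to equal library totals instead, log2 changes drop by 0.82 at 4 h and by 0.66 at 2 h (less for the members with few reads, Adm, Egln3 and Ankrd37). On that scale and at 4 h, 11 members (33.3%) were at least 2-fold higher and 5 (15.2%) at least 2-fold lower, against 12.8% and 44.5% of 17935 genes. At 2 h the same scale gave 7 members higher (21.2%) and 5 lower (15.2%), against 13.3% and 40.6%. Under each of 4 scalings (as deposited, equal totals, TMM factors, centred on library medians) 11 members were at least 2-fold higher at 4 h, namely Slc2a1, Slc2a6, Slc16a1, Slc16a3, Hk2, Hk3, Pfkp, Pfkfb3, Pdk3, Hif1a and Adm, and 2 were at least 2-fold lower, Pfkfb4 and Vegfa. On the scale of equal totals the 12 macrophage markers summed to 34600 reads per 1000000 at 0 h, 25300 at 2 h and 20400 at 4 h. This course depends on the scaling, and the part of these markers in the members' values was not tested. For 10 members the sign at 4 h depended on the scaling, and 6 of these, Aldoa, Gapdh, Eno1, Eno2, Pkm and Ldhb, belong to the steps from triose phosphates to lactate. At 2 h this held for 15 members, among them all 11 genes of those steps.

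**Figure D1:**
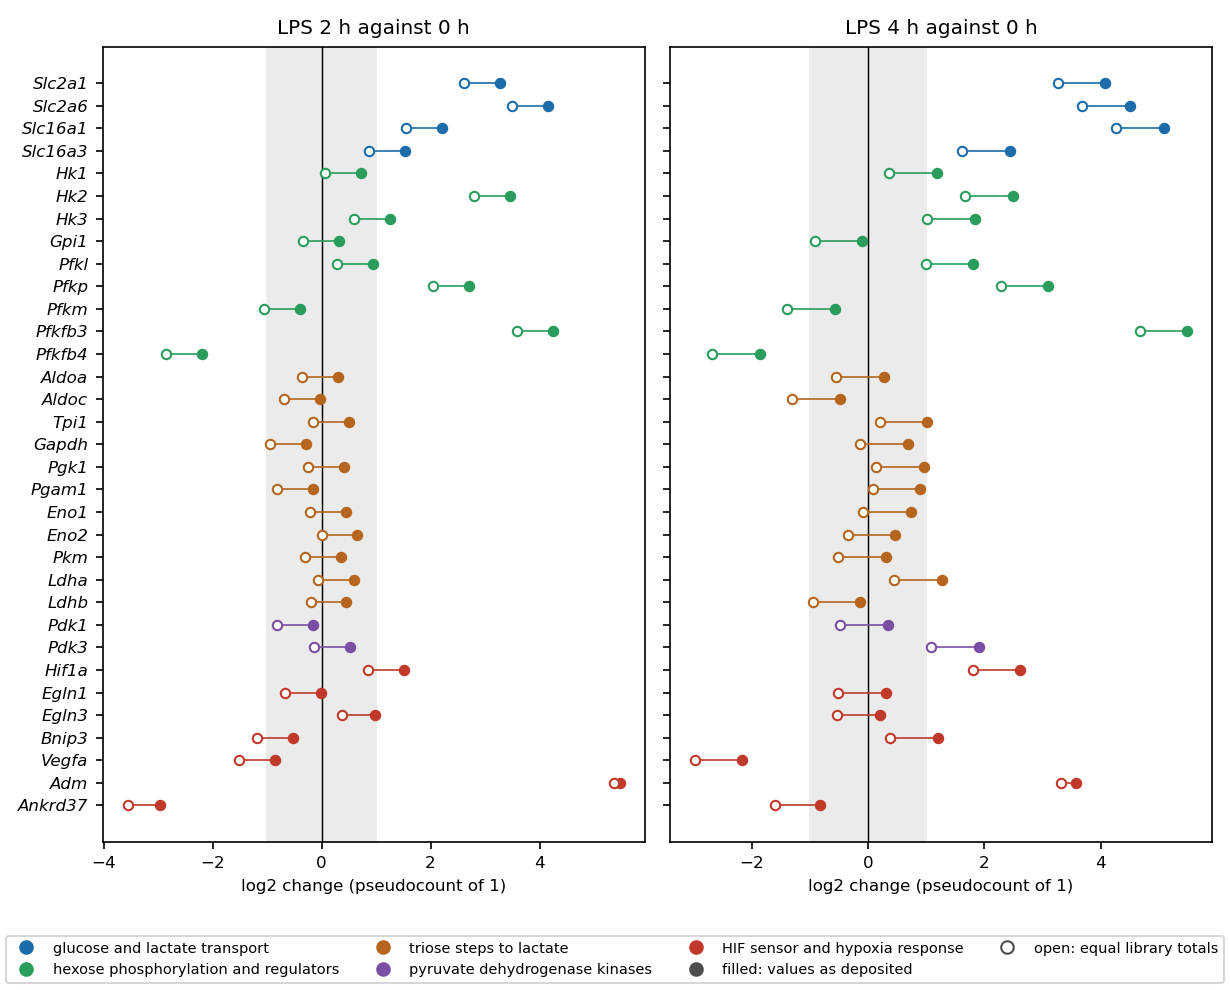
Log2 change of each of the 33 members at 2 h (left) and 4 h (right) of LPS against 0 h, 1 library per time point, with values as deposited (filled) and scaled to equal library totals (open). The grey band marks changes under 2-fold. At 4 h the transporters, Pfkfb3, Hk2 and Pfkp lie to its right on both scales, and Pfkfb4 and Vegfa to its left.

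Among the transporters, Slc2a1, which encodes the glucose transporter GLUT1, had normalised read values of 165.3, 1609.4 and 2811.1 at 0, 2 and 4 h. At 4 h the fold was 17.0, or 9.61 with equal library totals. Slc2a6, a lysosomal hexose transporter, had 841.4, 15054.2 and 19013.4, a fold of 22.6 at 4 h (12.8 with equal totals). Most of its difference was already present by 2 h, when the fold was 17.9. Per kilobase of transcript, Slc2a6 moved from rank 10 among the members at 0 h to rank 1 at 4 h, with 39.2, 444 and 501 reads per 1000000 per kb.

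The lactate exporters followed different courses. Slc16a3, which encodes MCT4, the low-affinity exporter of glycolytic cells, had values of 373.7, 1078.7 and 2031.3, a 5.44-fold difference at 4 h. Slc16a1, which encodes the broadly expressed MCT1, had 59.82, 279.5 and 2059.0, so that most of its 34.4-fold difference (95% counting interval 28.0 to 42.7) came between 2 h and 4 h. In reads, Slc16a1 held 13.8% of the sum of both at first (0 h, Wilson 95% interval 11.4 to 16.6%), then 20.6% (2 h) and 50.3% (4 h, 49.2 to 51.5%). Such a share within a library does not depend on how the libraries are scaled, but it is not corrected for transcript length, so its course over time is read here and not the order of the genes.

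Hexokinases trap glucose in the cell by phosphorylation. Hk2, the isozyme known to be induced by growth signals and HIF, had values of 539.1, 5959.2 and 3031.7, a fold of 11.1 at 2 h that had dropped to 5.62 by 4 h. Its share of the reads of the 3 hexokinases went from 13.9% to 45.5% and back to 22.4%. Hk3, the hexokinase of myeloid cells, had the highest level of the 3 per length in every library (68.6, 103 and 139 reads per 1000000 per kb), and its value was 3.58-fold higher at 4 h. Hk1, the housekeeping form, was 2.27-fold higher as deposited and 1.28-fold with equal totals. The plot of isozyme shares shows the peak of Hk2 at 2 h.

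Phosphofructokinase makes the committed step of the pathway, and its strongest activator is made by the PFKFB enzymes. Pfkfb3, whose product favours synthesis of that activator, had the largest fold of the members counted in every library, with 385.3, 7361.2 and 17383.7, or folds of 19.1 at 2 h and 45.1 at 4 h (interval 41.6 to 49.0). Pfkfb4 went the other way, from 829.8 to 181.2 and 228.2, and stood at 0.275 of its 0 h value at 4 h (0.246 to 0.307). Pfkfb3 therefore made up 31.7% of the reads of both genes at 0 h (29.7 to 33.8%), 97.6% at 2 h and 98.7% at 4 h (98.6 to 98.8%). Per length, Pfkfb4 had the higher level at 0 h, with 23.7 reads per 1000000 per kb, and Pfkfb3 at 2 h, with 96.7 against 3.28.

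The 3 subunits of phosphofructokinase itself also differed. Pfkp, the platelet type, had values of 622.7, 4044.2 and 5340.1, and was 8.58-fold higher at 4 h. Pfkl, the liver type, had 453.5, 871.3 and 1591.7. Pfkm, the muscle type, had 267.6, 203.1 and 179.3, and its share of the 3 genes' reads shrank from 19.9% to 3.97% and 2.52%, while that of Pfkp was 46.3%, 79.0% and 75.1%. Gpi1, which interconverts glucose and fructose phosphates, stayed near its starting value as deposited (4077.7, 5083.6 and 3807.7) and was at 0.528 of it at 4 h with equal totals.

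**Figure D2:**
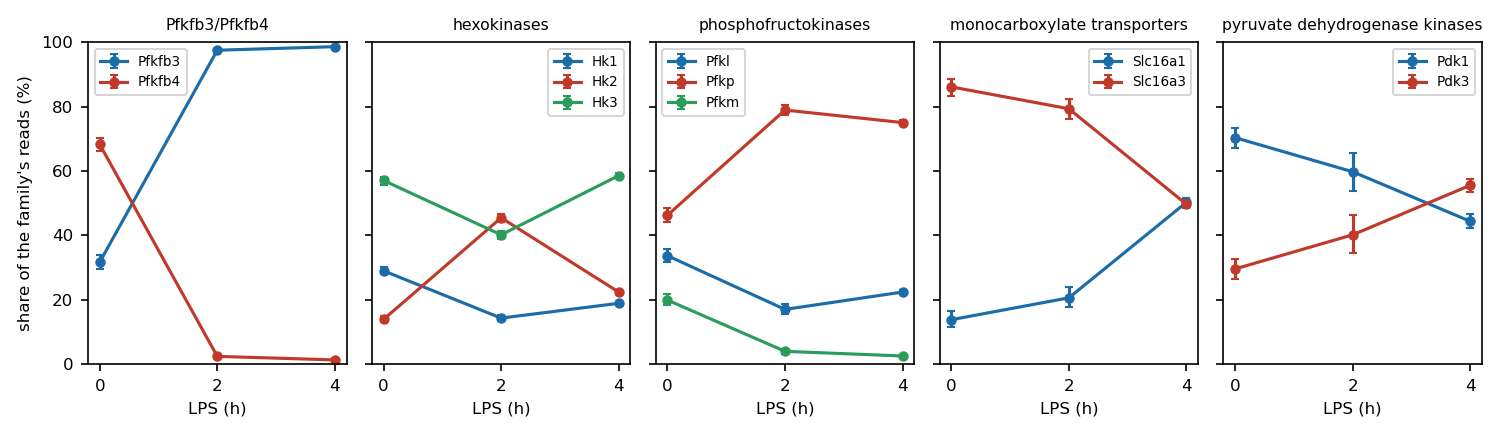
Share of a family's reads (%) held by each of its members among the 33 at 0, 2 and 4 h of LPS. The families shown are Pfkfb3 and Pfkfb4, the hexokinases, the phosphofructokinases, the monocarboxylate transporters and the pyruvate dehydrogenase kinases. Wilson 95% intervals cover counting error only. The share of Pfkfb3 passes that of Pfkfb4 by 2 h, and the shares of Hk2 and Pfkp are highest at 2 h. That of Pfkm shrinks, and the shares of Slc16a1 and Pdk3 grow up to 4 h.

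The genes from aldolase to lactate dehydrogenase changed less. None of the 11 was 2-fold changed at 2 h, and at 4 h 2 were, Ldha, the dehydrogenase subunit that favours lactate, with values of 2351.1, 3539.7 and 5665.1 (2.41-fold), and the triose phosphate isomerase Tpi1 with 1722.7, 2461.0 and 3499.0 (2.03-fold). With equal totals these were 1.36-fold and 1.15-fold, and Aldoc, a minor aldolase, was at 0.406 of its 0 h value. Pgk1 and Pgam1, enzymes of later steps, were 1.95-fold and 1.87-fold higher at 4 h as deposited, and 1.10-fold and 1.06-fold with equal totals. Pkm, the pyruvate kinase of macrophages, and Aldoa, the main aldolase, held the highest levels per length at 0 h, at 542 and 570 reads per 1000000 per kb, and were 1.23-fold and 1.21-fold higher at 4 h as deposited but at 0.698 and 0.683 of the 0 h level with equal totals. As a sum of reads per 1000000, which is the scale of equal totals, the 11 genes held 3380, 2730 and 2810 in the 3 libraries. The 4 transporters summed to 144, 1140 and 1460. For the 11 genes the direction of this course depends on the scaling. The dominant isozymes kept their place, with Aldoa above 97% of the reads of Aldoa and Aldoc, Eno1 above 98% of those of Eno1 and Eno2 and Ldha above 97% of those of Ldha and Ldhb in every library. Ldhb, the subunit that favours pyruvate, held 2.77% at 0 h and 1.06% at 4 h.

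The pyruvate dehydrogenase kinases started at like levels per length, 7.29 reads per 1000000 per kb for Pdk1 and 7.52 for Pdk3, and parted. Pdk3 had values of 159.5, 229.3 and 598.8, a 3.75-fold difference at 4 h, while Pdk1 had 378.9, 340.7 and 478.7. The share of Pdk3 in their reads grew from 29.6% (26.6 to 32.8%) to 55.6% (53.4 to 57.7%) between 0 h and 4 h.

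Hif1a, the oxygen-regulated HIF subunit, had values of 1226.7, 3491.7 and 7544.2, a 2.85-fold difference at 2 h and a 6.15-fold difference at 4 h (interval 5.86 to 6.45). Its response genes did not follow a common course. Bnip3, a mitophagy receptor and HIF target, was lower at 2 h and higher at 4 h, with 315.8, 220.6 and 725.5. Vegfa, the angiogenic growth factor that HIF is best known to induce, had 484.4, 268.6 and 107.6, from 753 reads at 0 h to 198 reads in the deepest library at 4 h, and stood at 0.222 of its 0 h value (0.189 to 0.260).

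The remaining HIF genes were low or near their starting values. Adm, which encodes the vasodilator adrenomedullin, had no read at 0 h and 20 reads in each LPS library. Computed against 3 reads, it was at least 22.6-fold higher after 2 h and still at least 5.63-fold higher after 4 h by the deposited scale, and at least 14.3-fold and 3.18-fold with equal totals. Ankrd37, a small HIF target, had 37 reads at 0 h, 1 read at 2 h and 24 reads at 4 h, and its ratio at 2 h was 0.0917 with a counting interval of 0.00226 to 0.544. Egln1, the main oxygen sensor, had 253.4, 251.1 and 313.5, while Egln3, the sensor that HIF itself induces, had 13, 8 and 18 reads, too few to show a difference.

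The AAV experiment asked what enforced Shisa3 expression changes in macrophages without LPS. For all 4 transporters and 6 of the 7 HIF and hypoxia genes, each AAV-Shisa3 value lay above each AAV-GFP value, and the abundant glycolytic enzymes were level or lower. At an adjusted p under 0.05 from limma, 4 members rose (12.1%) and 2 fell (6.06%), against 2.23% and 4.10% of the 11218 genes tested. The members that rose were Vegfa, Slc2a6, Slc2a1 and Pfkp, and those that fell were Eno2 and Hk3. At an unadjusted p under 0.05 there were 10 higher and 5 lower, against 8.21% and 19.8% of genes. The groups did not overlap for 23 members, with AAV-Shisa3 above for 17 (51.5%) and below for 6 (18.2%), against 18.2% and 41.2% of all genes tested. The median log2 change of the members was 0.17 and that of all genes -0.10, and with each sample centred on its median these were 0.28 and 0.01. The calls rested on all 4 samples. With any 1 of them left out, 0 members passed, with 5 to 12 higher and 3 to 5 lower at an unadjusted p under 0.05, and without limma's trend 0 passed, with 7 and 5.

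**Figure D3:**
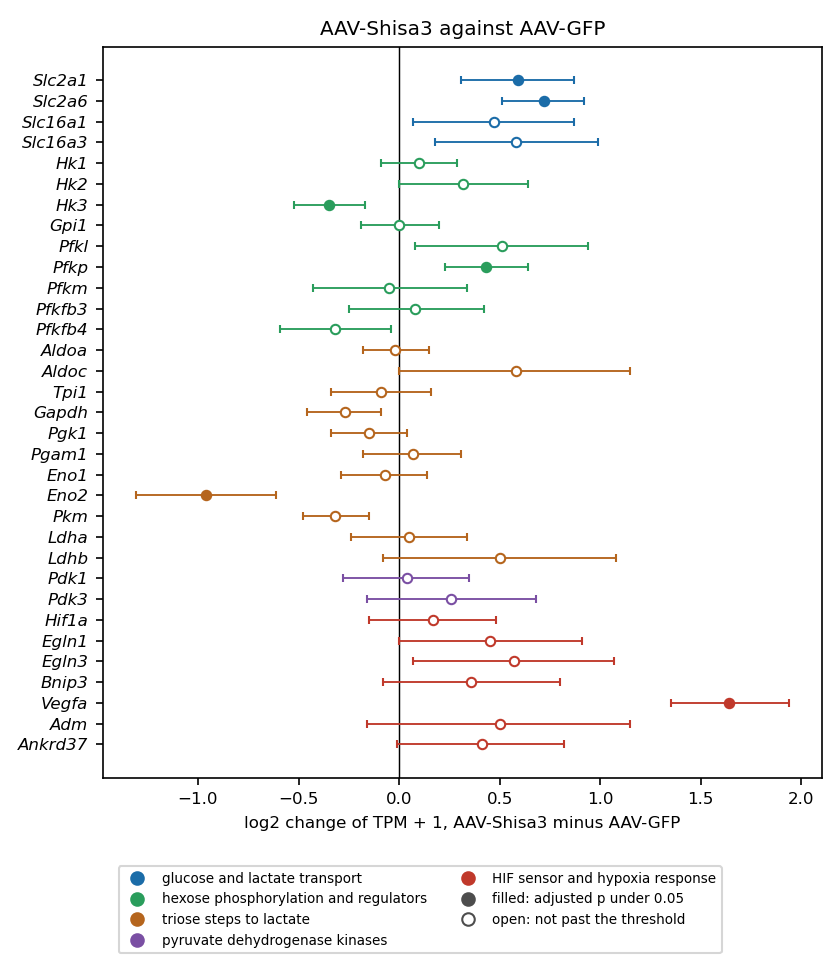
Log2 change of TPM + 1 in AAV-Shisa3 against AAV-GFP (2 samples each) for the 33 members, with 95% confidence intervals from limma. Filled points passed an adjusted p of 0.05. Vegfa stands apart at 1.64, the transporters lie between 0.47 and 0.72, and Eno2 is lowest at -0.96.

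Vegfa had 19.01 and 20.77 TPM in AAV-Shisa3 against 5.39 and 5.97 TPM in AAV-GFP. It was 3.50-fold higher by the means, a log2 change of 1.64 (SE 0.12, adjusted p = 0.0113 from limma), and between 1.58 and 1.71 with each sample left out. This was the largest change among the members and the opposite of its course under LPS.

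Slc2a6 had 54.29 and 53.06 TPM in AAV-Shisa3 against 31.53 and 32.94 TPM in AAV-GFP, a log2 change of 0.72 (SE 0.08, adjusted p = 0.0194 from limma). The replicates of each group lay within 2 TPM of each other. In the same order of groups, Slc2a1 had 92.63 and 97.49 TPM against 56.92 and 69.48 TPM, a change of 0.59 (SE 0.11, adjusted p = 0.0424). The lactate exporters lay in the same order without passing the threshold. Slc16a3 had 269.34 and 381.65 TPM against 204.93 and 222.54 TPM, a change of 0.58 (adjusted p = 0.0921, and 0.33 to 0.83 with each sample left out), and Slc16a1 had 4.55 and 5.02 TPM against 2.84 and 3.52 TPM, a change of 0.47 (adjusted p = 0.135).

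Of the phosphofructokinases, Pfkp rose to 76.54 and 82.67 TPM from 59.76 and 57.63 TPM (log2 change 0.43, SE 0.08, adjusted p = 0.0419 from limma). Pfkl had 94.45 and 131.82 TPM against 71.18 and 85.87 TPM, a change of 0.51 that did not pass (SE 0.18, adjusted p = 0.136) and was 0.27 to 0.75 with each sample left out. Pfkfb3, which was 45.1-fold higher at 4 h of LPS, overlapped between the groups, with 92.77 and 100.66 TPM against 79.91 and 103.78 TPM. Pfkfb4 had 15.24 and 14.75 TPM against 20.30 and 17.59 TPM, a change of -0.32 (adjusted p = 0.146).

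Hk3 fell to 377.31 and 351.55 TPM from 462.18 and 465.47 TPM (log2 change -0.35, SE 0.07, adjusted p = 0.0492 from limma), and with each sample centred on its median this was -0.23 and no longer passed (adjusted p = 0.150). Hk2 had 59.28 and 66.25 TPM against 44.49 and 55.97 TPM, a change of 0.32 (adjusted p = 0.178, and 0.16 to 0.49 with each sample left out), and Hk1 differed by 0.10. In TPM, Hk3 was 81.2% and 79.8% of the 3 hexokinases with AAV-GFP and 75.1% and 72.4% with AAV-Shisa3, so the groups did not overlap. Hk3 was the main hexokinase in every sample.

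Among the steps from triose phosphates to lactate, Eno2, the enolase best known from neurons, fell to 3.03 and 2.87 TPM from 6.38 and 6.98 TPM (log2 change -0.96, SE 0.14, adjusted p = 0.0269 from limma). It is a minor isozyme here, since Eno1 had between 1025 and 1186 TPM and overlapped between the groups. Pkm had 2413 and 2429 TPM against 2996 and 3031 TPM, a change of -0.32 just short of the threshold (adjusted p = 0.0529) that was -0.20 with centred samples. Gapdh had 4181 and 4307 TPM against 5297 and 4963 TPM (-0.27, adjusted p = 0.0906), and Pgk1 differed by -0.15. Aldoa (-0.02), Ldha (0.05), Tpi1, Pgam1 and Eno1 overlapped between the groups. The minor isozymes Aldoc, at 18.93 and 11.90 TPM against 11.07 and 8.58 TPM, and Ldhb were higher in each AAV-Shisa3 sample but did not pass, with changes of 0.26 to 0.89 and 0.24 to 0.76 with each sample left out. The 11 genes summed to 12699 and 13505 TPM in AAV-Shisa3 against 14708 and 14713 TPM in AAV-GFP, while the transporters summed to 420.8 and 537.2 TPM against 296.2 and 328.5 TPM.

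**Figure D4:**
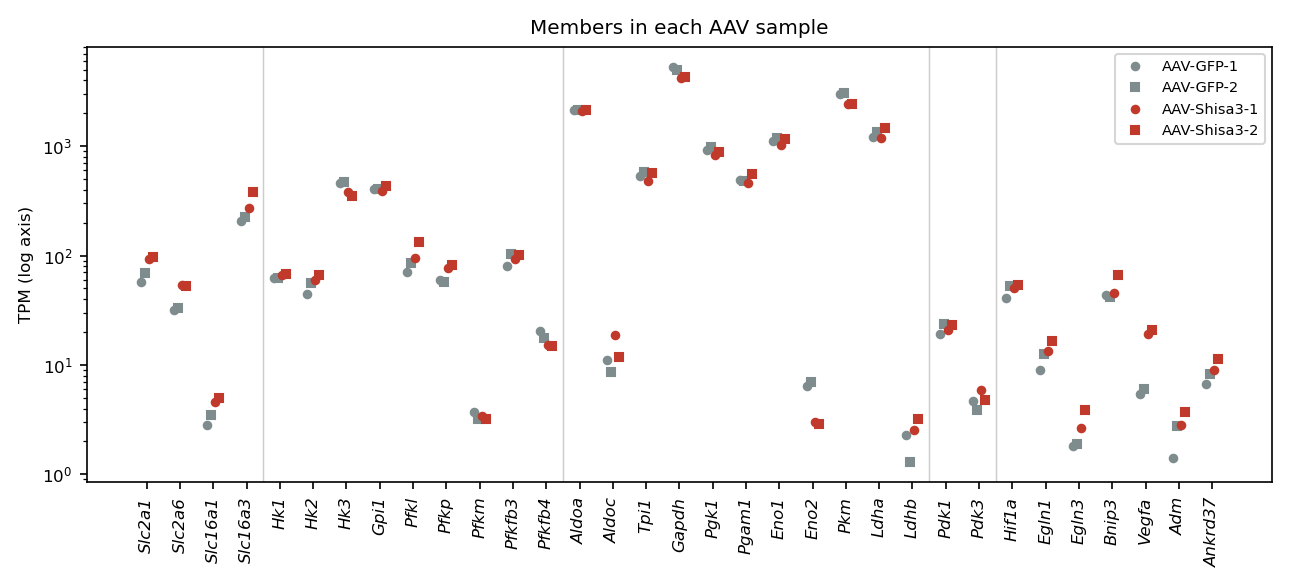
TPM (log axis) of the 33 members in each of the 2 AAV-GFP and 2 AAV-Shisa3 samples, with vertical lines between the functional groups. The enzymes from Aldoa to Ldha (the minor isozymes aside) lie between 464 and 5297 TPM with little distance between the groups, and Vegfa and Eno2 show the clearest separation.

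The HIF genes other than Vegfa did not pass the threshold. Hif1a had 50.87 and 53.88 TPM against 41.27 and 52.30 TPM and overlapped between the groups. Egln3 had 2.65 and 3.87 TPM against 1.81 and 1.88 TPM (0.57, adjusted p = 0.145), Egln1 differed by 0.45 (adjusted p = 0.181) and Ankrd37 by 0.41 (adjusted p = 0.182). Bnip3 had 45.35 and 66.58 TPM against 43.75 and 41.71 TPM, and its log2 change of 0.36 was 0.08 without AAV-Shisa3 replicate 2. Adm had 2.83 and 3.73 TPM against 1.40 and 2.79 TPM. With each sample left out the change was 0.23 to 0.68 for Egln1, 0.36 to 0.78 for Egln3 and 0.17 to 0.83 for Adm. It was 0.25 to 0.57 for Ankrd37 and 0.0 to 0.34 for Hif1a. Pdk1 overlapped between the groups and Pdk3 differed by 0.26 (adjusted p = 0.357, and 0.13 to 0.39 with each sample left out).

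The LPS and AAV comparisons use different samples, were normalised separately, and were not tested against each other, so their values are set side by side only. Slc2a1, Slc2a6 and Pfkp were at least 2-fold higher at 4 h of LPS and rose with AAV-Shisa3. Pfkfb3 (log2 change 5.49 at 4 h), Hif1a (2.62) and Hk2 (2.49) were far higher under LPS and had changes of 0.08, 0.17 and 0.32 with AAV-Shisa3, none past the threshold. Hk3 was higher under LPS (1.84) and fell with AAV-Shisa3, and Vegfa was lower under LPS (-2.16) and rose.

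Further genes of the pathways were grouped by role, and 1 call in a short list is to be read against the 2.23% higher and 4.10% lower over all genes. Of 12 tested among 24 other glycolysis genes, 0 passed the threshold of limma's test in the AAV experiment, and at an unadjusted p under 0.05 there was 1 higher and 1 lower, against 8.21% and 19.8% of all genes. Of 8 pentose phosphate genes 1 rose, Pgd, which makes NADPH, to 671.45 and 703.95 TPM from 496.80 and 491.12 TPM (log2 change 0.48, adjusted p = 0.0242 from limma), and 5 of the 8 (62.5%) were above in both AAV-Shisa3 samples. Of 11 tested genes for pyruvate entry into mitochondria 1 fell, Pdp1, the phosphatase that opposes the pyruvate dehydrogenase kinases, to 8.81 and 7.17 TPM from 14.85 and 13.19 TPM (-0.74, adjusted p = 0.0415), and in 7 of the 11 (63.6%) both AAV-Shisa3 samples were below and in 1 above. Of 28 tested other hypoxia response genes 1 fell, the mitophagy receptor Bnip3l (-0.66, adjusted p = 0.0216), in 5 (17.9%) both AAV-Shisa3 samples were above and in 11 (39.3%) below, which is near the 18.2% and 41.2% over all genes, and their median was -0.06. Of 9 tested HIF subunits and regulators 0 passed, and at an unadjusted p under 0.05 0 were higher and 2 lower, near the share over all genes, and in 1 both AAV-Shisa3 samples were above and in 5 (55.6%) below.

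Under LPS, the 4 h value was at least 4-fold higher for 5 of 33 other hypoxia response genes and at least 4-fold lower for 6, with 4 and 7 on equal totals. These were 15.2% and 18.2% of the list as deposited, against 10.2% and 8.89% of all genes (6.43% and 19.1% with equal totals). Among those higher were Plod2 (22.8-fold, 12.9-fold with equal totals), Ak4 (19.1-fold and 10.8-fold) and Lox (18.4-fold and 10.4-fold). They had 16, 23 and 78 reads at 0 h. With 1 added to each value, the chemokine receptor gene Cxcr4 had the most negative log2 change of the list, -6.70 at 4 h, with values of 2641.2, 54.59 and 24.45. Without it the fold of Angptl4, which had 95, 7 and 1 reads, was slightly lower. Of 13 other glycolysis genes kept, 1 was at least 4-fold higher, Gpd2, the mitochondrial glycerol phosphate dehydrogenase, at 29.1-fold, and 3 at least 4-fold lower (5 with equal totals), among them the regulator Pfkfb2 (-2.51) and the transporter Slc16a7 (-2.35). Pdk2 was the only gene of pyruvate entry 4-fold changed, from 141 reads at 0 h to 20 and 4 reads.

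Some members have near-identical copies elsewhere in the genome, and the part of these copies in the measured levels was not tested. A search of annotated transcripts at 90% identity or more over at least 50% of the transcript found 198 copies of 11 members, all of them among Gpi1, Bnip3 and the genes from Aldoa to Ldhb, and 157 of the copies were of Gapdh. In the AAV table Gapdh was the highest member at 5297 and 4963 TPM with AAV-GFP, while its copies summed to 285 and 271 TPM. In the LPS table Gapdh had 831 reads at 0 h, 200 at 2 h and 1590 at 4 h and ranked 11 among the members per length, and its copies held 412, 157 and 654 reads. How reads that fit several copies were counted is not given in the sources used here. Pgk1-rs7 was at 41.04 and 35.11 TPM in replicate 1 of both groups and listed at 0 in replicate 2 of both, while all copies of Pgk1 together held 35.12 and 30.85 TPM in AAV-Shisa3 against 41.13 and 37.86 TPM in AAV-GFP. Tpi-rs11 was at 4.36 and 3.54 TPM with AAV-GFP and listed at 0 with AAV-Shisa3, and Pgam1-ps2 held between 184 and 284 TPM beside 464 to 554 TPM of Pgam1. The transporters, the hexokinases, the phosphofructokinases, the PFKFB genes, the kinases Pdk1 and Pdk3 and all HIF genes but Bnip3 had no such copy.

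**Figure D5:**
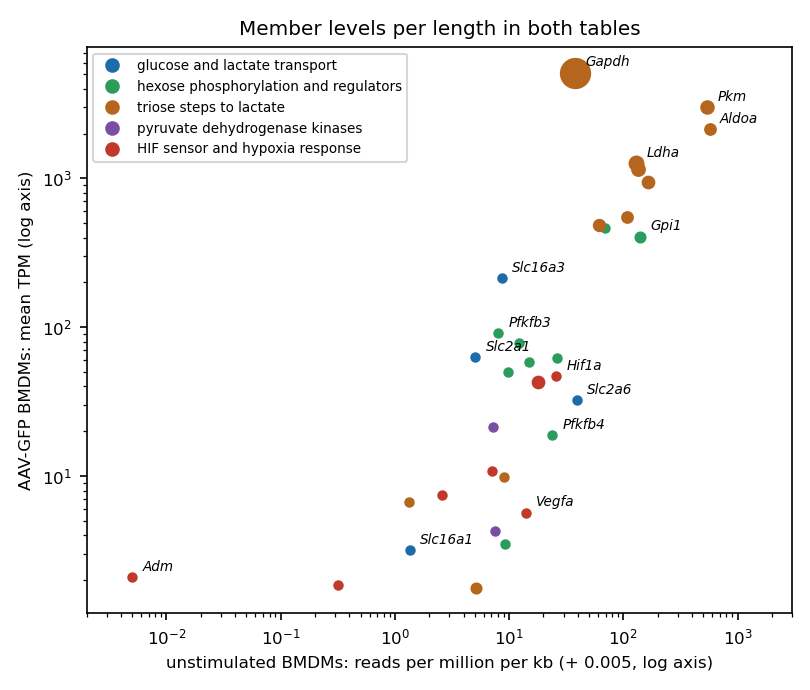
Level of the 33 members per length in unstimulated BMDMs (reads per 1000000 per kb, 0.005 added, log axis) against the mean TPM of the 2 AAV-GFP samples (log axis), with the point size set by the number of near-identical copies. Gapdh, with 157 copies, lies at 37.5 and 5130 and apart from the other abundant enzymes, and Adm had no read in unstimulated cells.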

How the data were processed

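RNA was sequenced from 7 samples of BMDMs. The LPS table holds a signal per gene as deposited, namely reads over a library-specific factor, and read counts were recovered since 100% of values were whole multiples (tolerance 0.01) of a step. They totalled 15588502, 7263258 and 32659392 at 0, 2 and 4 h. With 1 library per time point a count test could not be fitted. Folds were taken from the deposited values and log2 changes from value + 1, for genes whose mean reached 1. The authors' AAV table names no unit. Its values sum to between 999778 and 999818 per sample and were read as TPM, as the authors deposited them, with unknown depth. limma 3.58.1 (trended, R 4.3.3) was fitted to log2(TPM + 1) of the 11218 genes whose mean reached 1, which understates the change of low genes. TMM factors came from edgeR 4.0.16.

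The aligner and counter are not given in the sources used here. The submitters' processing notes name mm9, and the tables hold no coordinates. Lengths and copies came from GENCODE M21 (GRCm38, longest coding transcript, BLAST 2.17.0), and promoters from RefSeq (GRCm38.p6), with all 33 members matched. The members and lists were chosen with earlier results of these data known. All 33 members were described, with further genes by threshold or size of change, of which 1 is not reported here. The isozyme families, the copy search and the promoters shown were chosen after values were seen. Alternatives were scaling, filter, pseudocount, trend, a replicate block and leaving out each sample.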

Additional observations from a re-analysis of the deposited data

How the results depend on the processing

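Counts of members past the threshold in AAV-Shisa3 against AAV-GFP, 4 higher and 2 lower, depended on the fit, as did those over all genes, 250 and 460. They were 0 and 0 without the trend (1 and 4 of all genes), 4 and 1 with centred samples (410 and 230), and 10 and 4 with no filter on low values (950 and 1605). In the last fit 63.3% of the 55352 rows were at 0 in all samples, and limma warned that its variance estimate was unreliable. A fit over the 20300 genes above 0 in a sample, added after that was seen, gave 0 and 0 members and no call over all genes, although 5 and 4 members had an unadjusted p under 0.05. Leaving out each sample in turn, 0 to 0 members were higher and 0 to 0 lower, against 0 to 32 and 0 to 10 of all genes. The lone sample of a group is then assumed to vary like the rest. With the replicate number as a block the members numbered 7 and 4 (424 and 851 of all genes). The labels give the numbers no meaning, and the differences between replicates 1 and 2 correlated at 0.188 between the groups over genes, which with 2 numbers does not settle whether they pair the samples. With the block, adjusted p was 0.0324 for Slc16a3, 0.0276 for Pfkl, 0.0446 for Aldoc, 0.0474 for Gapdh, 0.0281 for Pkm and 0.0287 for Shisa3, none of which passed without it. The cause was not tested. A minimum of 1 in every sample and a pseudocount of 0.1 changed these counts by no more than 1.5 times.

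Some members without a call changed sign. Centring gave Pfkm 0.07, Aldoa 0.10, Tpi1 0.025 and Eno1 0.042. With 1 sample left out in turn, values that changed sign ranged from -0.163 to 0.015 for Eno1, -0.071 to 0.079 for Gpi1, -0.094 to 0.191 for Ldha, -0.104 to 0.176 for Pdk1, -0.102 to 0.271 for Pfkfb3, -0.122 to 0.030 for Pfkm, -0.060 to 0.196 for Pgam1 and -0.206 to 0.024 for Tpi1. None of these values passed the threshold.

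For LPS, equal library totals moved the members at least 2-fold lower from 2 to 5 at 2 h and from 2 to 5 at 4 h, while over all genes that count went from 4406 to 7290 and from 4207 to 7985. The other counts of members stayed within 1.5 times under the scalings, pseudocounts and filters tried. Depth limits Egln3, Adm and Ankrd37, which had at most 37 reads in any library.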
